A study of Homo sapiens with 12 samples.

Results

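C/EBP proteins are transcription factors of the basic leucine zipper class, which bind DNA as dimers with each other or with related zipper proteins. In the mouse mammary gland, C/EBPβ is needed for duct growth and for the formation of milk-producing alveoli, and prolactin (PRL) signals in the same tissue through its receptor, the kinase JAK2 and STAT5. C/EBPα promotes differentiation and growth arrest in fat, liver and myeloid cells, C/EBPδ is an early-response member induced by cytokines through STAT3, and C/EBPγ lacks an activation domain and acts through its partners, such as ATF4.

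The 4 C/EBP genes described here are CEBPA, CEBPB, CEBPD and CEBPG, picked by symbol from 62702 entries with values in the count table, and all 4 passed the filter that left 17677 genes for testing. They were read in MCF10AT cells, the Ras-carrying derivative of the human mammary epithelial line MCF10A. The cells expressed the long form of the human prolactin receptor and, with it, the intermediate form (hPRLrL/hPRLrI). The groups, 3 libraries each, were I-tail deleted cells (hPRLrL/hPRLrI I-tail deleted) treated with PRL, the same cells untreated, cells with the intact I-tail (hPRLrL/hPRLrI) treated with PRL, and those untreated. PRL was given at 250 ng/ml for 2 h after 24 h of serum starvation, which all groups shared, as they shared the line and its long receptor. How the receptors were introduced, and whether each line is 1 clone, was not stated. The labels call the treated samples biological replicates without naming separate cultures, so p-values measure the spread between these libraries.

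Libraries held 36120808 to 57324865 counts and carry the numbers 1 to 3 in each group, assigned by title order. The receptor gene PRLR stood at 3099 to 3959 CPM in all 12 libraries (CPM, counts per 1e+06 counts of a library after scaling), a gene count that does not show the I-tail. All 13 epithelial markers checked had a mean above 1 CPM. None of 6 leukocyte markers did. Of 7 fibroblast markers 4 were above it, led by DCN at 211.6 to 471.8 CPM and COL1A1 at 97.1 to 237.7 CPM. The libraries numbered 1 stood apart in every group. Their 13 epithelial markers summed to 3652 to 4497 CPM, against 9624 to 17283 CPM in the other 8 libraries. Such a sum follows its most abundant members and does not show that every marker was lower. KRT17 alone had 406.4 to 540.5 CPM in libraries numbered 1, 2232 to 2699 CPM in those numbered 2 and 2612 to 4670 CPM in those numbered 3. In the libraries numbered 1, 24477 to 25200 genes had a count, against 19073 to 23895 in the other 8.

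A promoter window of CEBPB is shown because this gene had the largest PRL difference of the 4. The stretch is the RefSeq window from 250 bases before to 50 bases after the start site (GRCh38.p14, plus strand, chr20:50190580-50190879), printed 5′ to 3′ with the cyclic AMP response half-site TGACG in capitals. In the rat gene, CREB is known to bind elements of this kind close to the TATA box.

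CEBPB promoter: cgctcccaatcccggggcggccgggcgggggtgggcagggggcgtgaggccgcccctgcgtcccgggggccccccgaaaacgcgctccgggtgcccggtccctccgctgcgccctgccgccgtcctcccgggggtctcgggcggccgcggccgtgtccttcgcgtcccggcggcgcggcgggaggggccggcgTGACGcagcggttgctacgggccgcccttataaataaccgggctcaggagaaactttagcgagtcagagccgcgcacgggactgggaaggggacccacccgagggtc

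The capitals begin at position -57 relative to the start site of this window, and 24.6% of the 35116 RefSeq windows hold this half-site on either strand. GENCODE 29 begins the gene at 50190734, upstream of the half-site. Another RefSeq window of CEBPB (chr20:50190333-50190632) did not hold it. The STAT motif TTCNNNGAA (in 7.66% of windows), the full response element TGACGTCA, which contains the half-site (1.85%), the C/EBP motif TTGCNNAA (10.5%) and the AP-1 motif TGANTCA (7.71%) had no match in this window on either strand. The 5 RefSeq windows matched to CEBPA, CEBPB and CEBPG held no other match to any of these motifs. A match describes the letters in a window and is no evidence of binding.

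CEBPB was by far the most abundant of the 4 transcripts per length. In GENCODE 29 (GRCh38) it is a gene of 1 exon on chromosome 20 (50190734 to 50192689, plus strand, ENSG00000172216). Its level averaged 131.5 ± 27.5 CPM per kb of exon over the 12 libraries (SD), above 98.5% of the tested genes with a length. CEBPD, also of 1 exon (chromosome 8, 47736909 to 47739086, minus strand, ENSG00000221869), averaged 18.7 ± 8.48 CPM per kb. CEBPA, of 1 exon (chromosome 19, 33299934 to 33302564, minus strand, ENSG00000245848), averaged 1.90 ± 0.520 CPM per kb. CEBPG, of 3 exons when transcripts are merged (chromosome 19, 33373330 to 33382686, plus strand, ENSG00000153879), averaged 1.25 ± 0.325 CPM per kb. CEBPB lay above CEBPD, and CEBPD above CEBPA and CEBPG, in every library. The ranges of CEBPA (1.36 to 3.23) and CEBPG (0.814 to 1.85) overlapped, but CEBPA lay above CEBPG in every library numbered 2 or 3. In those numbered 1 CEBPA was lower in all but the deleted untreated library (1.56 against 1.55), so their order was not the same in all libraries. In the summed level of the 4 genes CEBPB took 79.1% to 91.0%, CEBPD 6.64% to 18.6%, CEBPA 0.908% to 1.58% and CEBPG 0.461% to 1.51% per library. Annotated genes on the opposite strand overlap CEBPA and CEBPB. Reads shared with them may be missing from these levels and shares, and from the order of CEBPA and CEBPG. These are mRNA levels: the long and short forms of C/EBPβ, the activating LAP and the inhibitory LIP, arise from 1 mRNA by the choice of start codon and are not separated by a gene count. In bulk RNA, fewer cells that express a gene and less RNA per cell cannot be told apart.

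**Figure D1:**
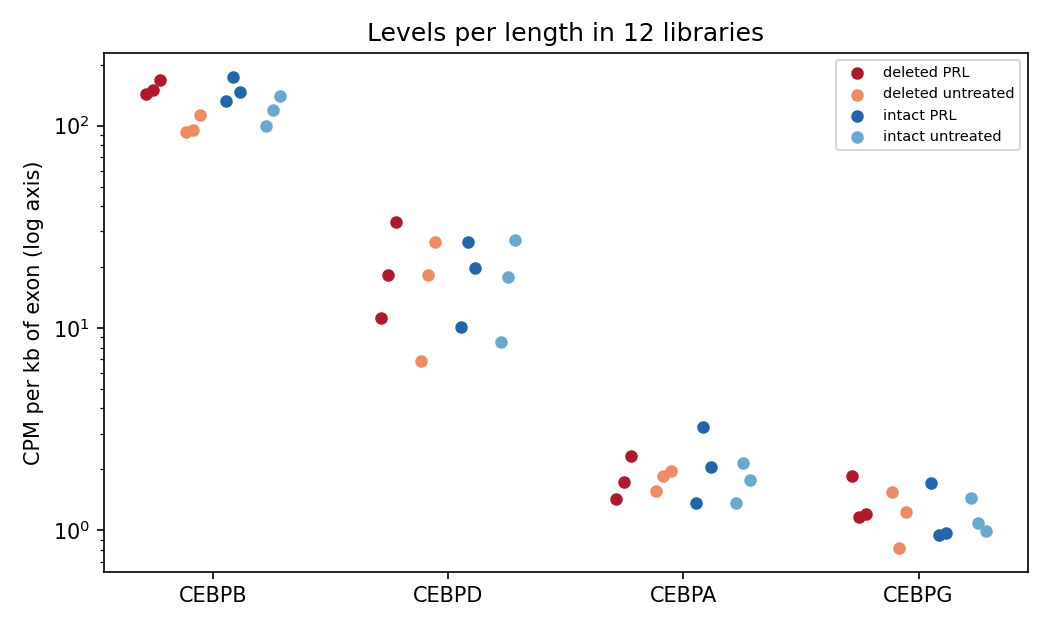
Level of each C/EBP gene in CPM per kb of merged exon (log axis) in 12 libraries, coloured by group, with 3 points per group. CEBPB stands at 93.2 to 174.8, CEBPD at 6.85 to 33.6, and CEBPA and CEBPG overlap between 0.814 and 3.23.

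The question of the design was how PRL acts on the cells with and without the I-tail. CEBPB was higher in PRL-treated than in untreated cells in both receptor pairs, by 1.39-fold on average, but this difference did not pass the test over all genes. CEBPB had 279.2, 294.1 and 329.6 CPM in deleted PRL libraries, against 182.3, 187.2 and 220.1 CPM in deleted untreated libraries. In this pair every treated library lay above every untreated one, as was the case for 3.29% of all tested genes. With the intact I-tail CEBPB had 260.5, 342.0 and 288.0 CPM in PRL libraries, against 194.4, 235.0 and 274.7 CPM in untreated libraries. Here the groups overlapped, since treated library 1 was below untreated library 3, and 2.61% of tested genes had every treated library above. Over both pairs, 0.441% of tested genes had all 6 treated libraries above all 6 untreated ones, and CEBPB did not. The averaged log2 fold change was 0.48 ± 0.13 (SE), with a 95% interval of 0.20 to 0.75 (edgeR quasi-likelihood test, unadjusted p = 0.00254, Benjamini-Hochberg adjusted p = 0.427). The value in I-tail deleted cells was 0.61 ± 0.18 (edgeR, unadjusted p = 0.00484, adjusted p = 1), and with the intact I-tail 0.34 ± 0.18 (edgeR, unadjusted p = 0.0853, adjusted p = 1). The intact value was 0.22 without untreated library 1, 0.23 without PRL library 2 and 0.15 with limma-voom. The interaction, deleted minus intact, was 0.28 ± 0.26 with an interval of -0.28 to 0.83 (edgeR, adjusted p = 1), so that the PRL effects of the pairs were not shown to differ. It was 0.17 without intact untreated library 3 and 0.42 with limma-voom.

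The other members varied more between libraries than between treatments. CEBPA, the differentiation factor, had 3.76, 4.57 and 6.11 CPM in deleted PRL libraries, against 4.11, 4.86 and 5.17 CPM in deleted untreated libraries. With the intact I-tail CEBPA had 3.61, 8.49 and 5.39 CPM in PRL libraries, against 3.57, 5.63 and 4.67 CPM in untreated libraries. The groups overlapped in both pairs, and the highest value was that of intact PRL library 2, in which the fewest genes were detected (19073). The averaged log2 fold change of CEBPA was 0.18 ± 0.22, with an interval of -0.30 to 0.66 (edgeR, adjusted p = 0.98), and without that library it was -0.0017.

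CEBPD, the cytokine-responsive member, had 24.3, 40.0 and 73.1 CPM in deleted PRL libraries, against 14.9, 39.7 and 57.7 CPM in deleted untreated libraries. With the intact I-tail CEBPD had 22.0, 57.8 and 43.3 CPM in PRL libraries, against 18.6, 38.8 and 59.0 CPM in untreated libraries. Each group spanned 2.62- to 3.87-fold, and the groups overlapped. The averaged log2 fold change of CEBPD was 0.18 ± 0.37, with an interval of -0.62 to 0.99 (edgeR, adjusted p = 0.981), which spans a change of up to 1.99-fold upward.

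CEBPG, the partner of ATF4, had 8.18, 5.11 and 5.31 CPM in deleted PRL libraries, against 6.85, 3.59 and 5.42 CPM in deleted untreated libraries. With the intact I-tail CEBPG had 7.53, 4.18 and 4.29 CPM in PRL libraries, against 6.35, 4.77 and 4.39 CPM in untreated libraries. Again the groups overlapped, and library 1 was the highest in all 4. The averaged log2 fold change of CEBPG was 0.14 ± 0.22, with an interval of -0.34 to 0.62 (edgeR, adjusted p = 0.98). It rested on few counts, 140 to 368 per library, as did that of CEBPA with 154 to 284.

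**Figure D2:**
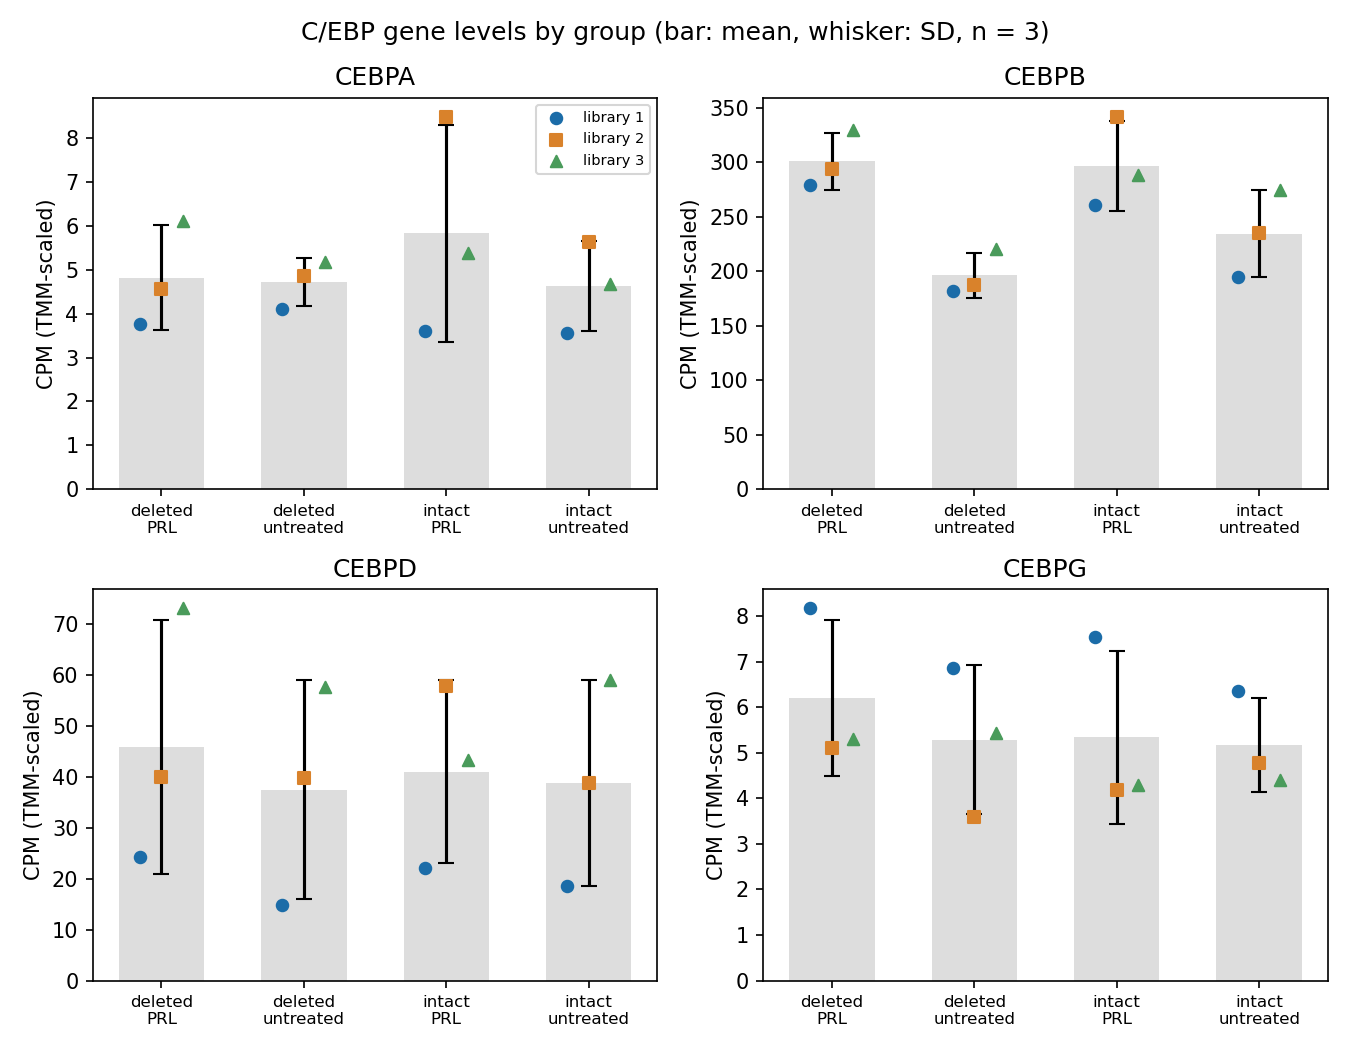
CPM of each C/EBP gene by group (bar: mean, whisker: SD, n = 3), with symbols for libraries 1, 2 and 3. CEBPB averaged 301.0 and 296.8 CPM in the PRL groups against 196.5 and 234.7 CPM in the untreated ones, while CEBPD is lowest and CEBPG highest in library 1 of every group.

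Deletion of the I-tail left no detectable difference in any of the 4 genes. In untreated cells CEBPB averaged 196.5 ± 20.6 CPM with the I-tail deleted and 234.7 ± 40.2 CPM with it intact (SD, n = 3 each), a log2 fold change of -0.26 ± 0.18 (edgeR, adjusted p = 1). With an offset for GC content and length this value was -0.034. In PRL-treated cells CEBPB averaged 301.0 ± 25.9 CPM with the I-tail deleted and 296.8 ± 41.5 CPM with it intact, a log2 fold change of 0.020 ± 0.18 (edgeR, adjusted p = 1). The averaged deletion effect was -0.12 ± 0.13 for CEBPB, -0.12 ± 0.22 for CEBPA, 0.054 ± 0.37 for CEBPD and 0.12 ± 0.22 for CEBPG (edgeR, adjusted p = 0.991 to 0.992). Its 95% interval was widest for CEBPD, 0.593- to 1.82-fold, and narrowest for CEBPB, 0.760- to 1.12-fold. The interactions of CEBPA (-0.30 ± 0.44), CEBPD (0.21 ± 0.75) and CEBPG (0.18 ± 0.45) did not pass either (edgeR, adjusted p = 1).

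Thus 0 of the 4 members were called in the 7 comparisons at adjusted p under 0.05. Over all tested genes the share called was 0.119% for the averaged PRL effect, 0.017% for PRL with the deleted I-tail and 0.017% with the intact one. It was 0.00566% for each of the 3 deletion effects and 0% for the interaction. At an unadjusted p under 0.05 in edgeR, CEBPB was the 1 member reached by the averaged PRL effect, beside 3.81% of all tested genes. DESeq2 and limma-voom called none of the 4 in any comparison, with adjusted p = 0.0748 and 0.0989 for the averaged PRL effect on CEBPB.

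**Figure D3:**
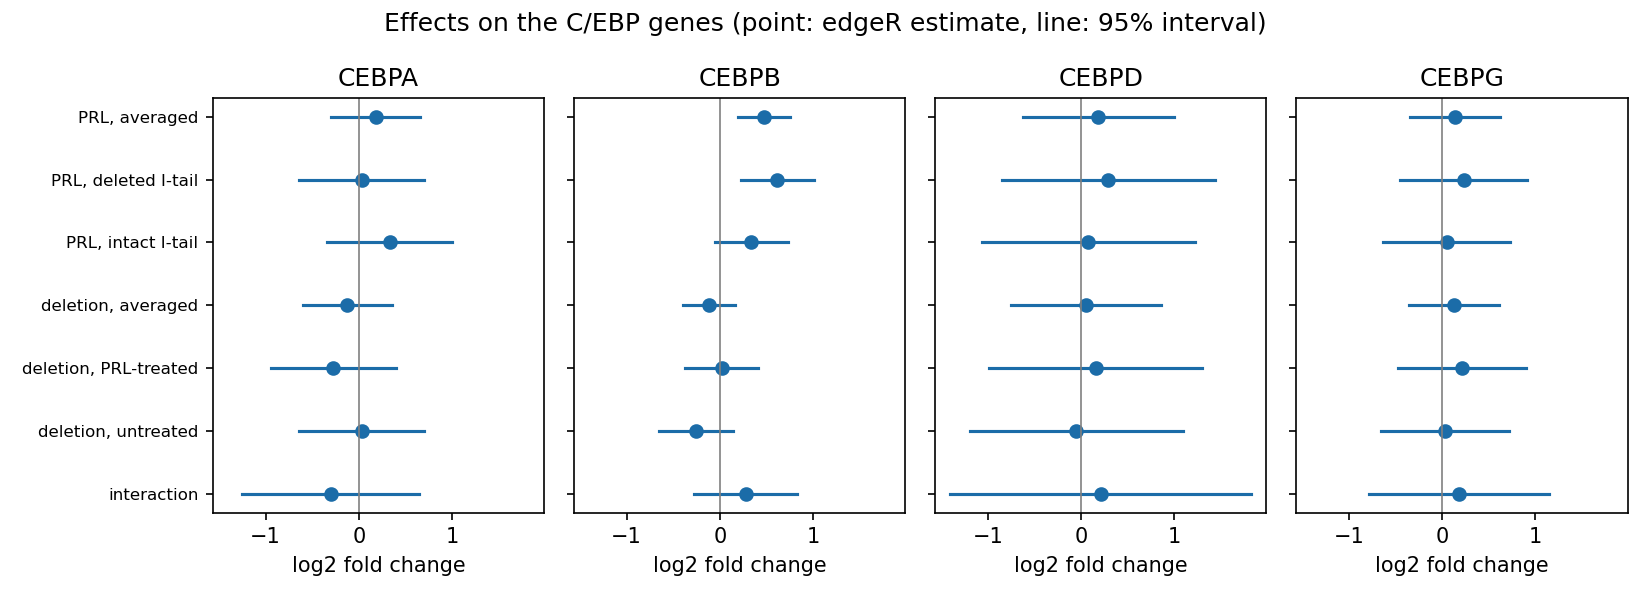
Log2 fold changes of the C/EBP genes in the 7 comparisons (point: edgeR estimate, line: 95% interval, shared axis). The interval of CEBPB excludes 0 for the averaged PRL effect (0.20 to 0.75) and for PRL with the deleted I-tail (0.22 to 1.01), and all other intervals include 0.

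The call on CEBPB depended on how differences between library sets were treated. The titles run in 3 sets of 4 consecutive numbers, each with 1 library of every group. The labels do not say what a set is, so the set was a term of an alternative fit and no pairing of the design. Within a set CEBPB was higher with PRL in 6 of 6 differences, as were 8.37% of all tested genes. These differences were 0.62, 0.65 and 0.58 on the log2 scale with the deleted I-tail and 0.42, 0.54 and 0.07 with the intact one. With the term the averaged log2 fold change of CEBPB was 0.48 ± 0.086 and passed (edgeR, adjusted p = 0.00882), in a fit that called 1.12% of tested genes. The effect with the deleted I-tail also passed, at 0.62 ± 0.12 (edgeR, adjusted p = 0.0452, 0.322% of genes called), and that with the intact I-tail did not (0.35 ± 0.12, adjusted p = 0.448). No other member was called with the term in any comparison, beside 0.351% of genes for PRL with the intact I-tail, 0.0622% for the averaged deletion effect, 0.00566% for either single deletion effect and 0% for the interaction. The call on the deleted effect ended in 11 of the 12 fits that left out 1 library (adjusted p up to 0.429), the exception being that without intact PRL library 2. The averaged call ended without intact untreated library 1 (adjusted p = 0.061), deleted PRL library 1 (0.0567) or deleted PRL library 3 (0.0531). CEBPB, CEBPA and CEBPD are rich in G and C, at 66.2%, 65.9% and 70.0% of the longest transcript, above 97.5%, 97.3% and 99.6% of tested genes, and CEBPG has 43.9%. With an offset for GC content and length the averaged effect on CEBPB was 0.32 ± 0.13 (edgeR, adjusted p = 0.804), and with offset and term together 0.31 ± 0.082 (adjusted p = 0.0778).

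**Figure D4:**
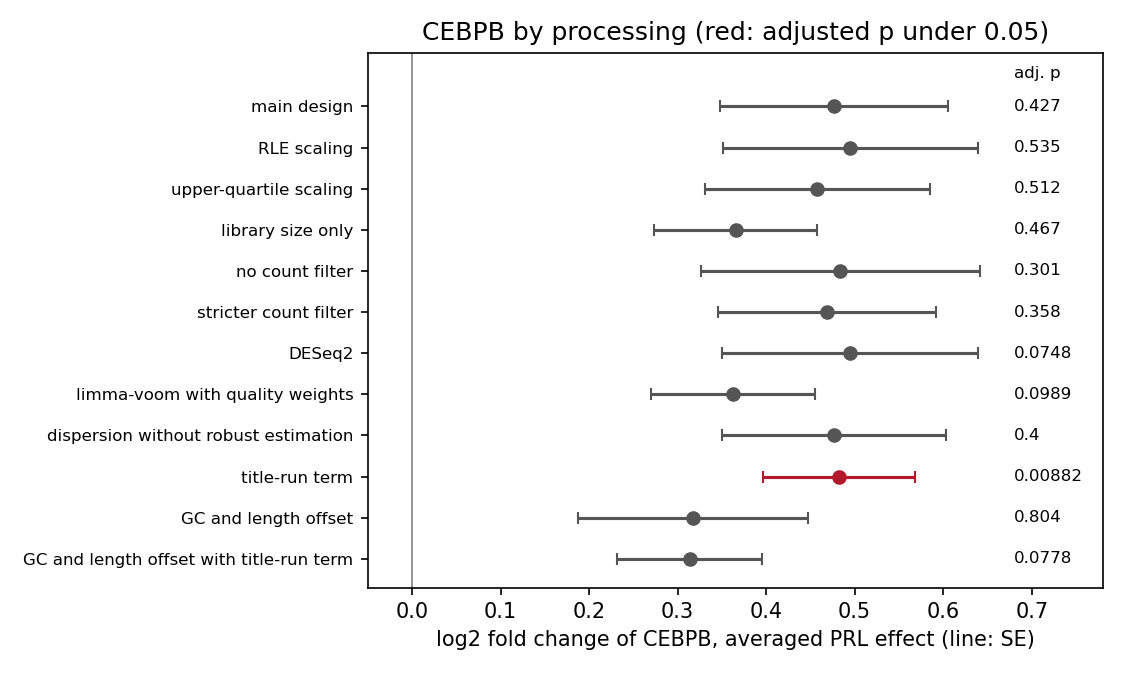
Averaged PRL effect on CEBPB (log2 fold change, line: SE) under 12 ways of processing, with the adjusted p at the right. All estimates lie between 0.31 and 0.50, and the fit with the term for title sets (title-run term) has an adjusted p under 0.05 (0.00882).

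Library sets marked CEBPD, CEBPG and CEBPA more than the study's groups did. CEBPD stood at 14.9 to 24.3 CPM in the 4 libraries numbered 1, below the 38.8 to 57.8 CPM of those numbered 2 and the 43.3 to 73.1 CPM of those numbered 3. CEBPA likewise was lowest there, at 3.57 to 4.11 CPM against 4.57 to 8.49 and 4.67 to 6.11 CPM. CEBPG ran the other way, with 6.35 to 8.18 CPM in libraries numbered 1 against 3.59 to 5.11 and 4.29 to 5.42 CPM. Of all tested genes, 13.6% were lower and 12.8% higher in all 4 libraries numbered 1 than in the other 8. Of the sum of squares of log2 CPM, the sets held 86.5% for CEBPD, 78.3% for CEBPG, 58.6% for CEBPA and 16.4% for CEBPB, beside a median of 44.2% over all tested genes. The groups held 73.9% for CEBPB, against 3.52% for CEBPD. Only 2.82% of tested genes had a larger set share than CEBPD. The basal keratin gene KRT5 moved with the sets too, at 309.9 to 415.9 CPM in libraries numbered 1, 995.1 to 2209 CPM in those numbered 2 and 2200 to 3331 CPM in those numbered 3. The sets differed in genes detected as well, and in the scaling factor of a library. That factor was 1.10 to 1.16 in libraries numbered 1, 0.790 to 1.01 in those numbered 2 and 0.910 to 1.05 in those numbered 3. The part of any of these differences in the levels of CEBPD, CEBPA and CEBPG was not tested.

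Across the 12 libraries, log2 CPM of CEBPA and CEBPD had a Pearson r of 0.76 and a Spearman rho of 0.74, CEBPA and CEBPG -0.68 and -0.68, and CEBPD and CEBPG -0.68 and -0.57. CEBPB had r = 0.60 with CEBPD, 0.53 with CEBPA and -0.13 with CEBPG. These values describe libraries that fall into sets, and they carry no test. The scaling factor of a library had r = -0.92 with CEBPA, -0.74 with CEBPD, -0.64 with CEBPB and 0.71 with CEBPG.

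Genes with the most similar course over the 12 libraries were taken by Pearson r of log2 CPM among 9145 other genes with a symbol and a mean of at least 5 CPM (9146 for CEBPA). For CEBPB these were PEDS1, a plasmanylethanolamine desaturase (r = 0.95), SPHK1, a sphingosine kinase (0.94), the AP-1 gene JUNB (0.94), the ubiquitin ligase gene RNF126 (0.93) and the retinoid X receptor gene RXRA (0.93). PEDS1 lies on the same chromosome as CEBPB (20, 50118254 to 50153734, minus strand), 37000 bases away, with LINC01273 and part of CEBPB-AS1 between them. The 5 genes were chosen on the same 12 libraries, in which the groups held 73.9% of the sum of squares of CEBPB. A PRL difference among them thus partly follows from that choice and is no separate support for one in CEBPB. Of these 5, JUNB rose with PRL (0.94 ± 0.16, edgeR, adjusted p = 0.0386), beside 0.119% of all tested genes called. That call ended in 10 of the 12 fits that left out 1 library (adjusted p up to 0.187) and with RLE scaling (0.0807), the exceptions among leave-outs being those without intact PRL library 1 or 2. The call held with DESeq2 (adjusted p = 5.48e-05), limma-voom (0.00189), the GC and length offset (edgeR, 0.0154) and the term for title sets (edgeR, 0.000354). The other 4 did not pass in the main design, among them SPHK1 (1.59 ± 0.35, adjusted p = 0.192) and PEDS1 (0.31 ± 0.12, adjusted p = 0.98). With the term for title sets SPHK1 passed (edgeR, adjusted p = 0.000283) and PEDS1 did not (0.0707). For CEBPD they were S100A3 (0.98), FTSJ1, CHRAC1, TRPC4AP and CDCA4 (0.97 each). S100A3, of the S100 calcium-binding proteins, ranged from 4.64 to 24.1 CPM. For CEBPG they included MAP2K4, a kinase upstream of JNK (0.95), PPP6R3, ZBTB38 (0.94 each) and GOLGA5 (0.93). For CEBPA they were TUBB, RTN4R (0.98 each), MVK, FAHD2A and ACD (0.97 each). An r above 0.9 was reached by 797 genes for CEBPA and 136 for CEBPD, but by 15 for CEBPB and 20 for CEBPG. Library sets held 58.6% of the sum of squares of CEBPA, 86.5% of that of CEBPD and 78.3% of that of CEBPG. CEBPA also had r = -0.92 with the scaling factor. The part of sets and scaling in these likenesses was not tested, so the lists are no evidence of shared regulation.

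Since it is not known whether strand was counted, the counts of genes that overlap a C/EBP gene do not measure those transcripts alone. CEBPB-AS1, which overlaps CEBPB on the opposite strand (chromosome 20, 50184598 to 50191498), had 0 to 0.771 CPM and at most 28 counts, against at least 7897 counts of CEBPB. CEBPA-DT, which starts 293 bases from CEBPA in the other direction, had 0.268 to 1.58 CPM and a PRL effect of -0.17 ± 0.35 (edgeR, adjusted p = 0.981). Both annotated entries within CEBPA on the opposite strand (33299934 to 33301168 and 33301279 to 33301940) were at 0 counts in all libraries. This does not show that they were not transcribed. How reads shared by overlapping genes were counted is not known either. The counts of CEBPA, and of CEBPB where CEBPB-AS1 overlaps it, may therefore be too low. CEBPA and CEBPG lie 70765 bases apart on chromosome 19 and differed in the sign of their r with CEBPD. The nearest tested genes beside CEBPB were the noncoding LINC01273 (14063 bases away, 0.138 to 1.37 CPM, 0.13 ± 0.38) and PELATON (74797 bases away, 0.745 to 2.07 CPM, 0.37 ± 0.26), and LRP3 lay 91067 bases from CEBPA (0.28 ± 0.27). None of these 3 was called for PRL (edgeR, adjusted p = 0.98 to 0.984). The neighbours of CEBPG and CEBPD, PEPD (0.13 ± 0.12), SPIDR (-0.22 ± 0.17) and PRKDC (0.052 ± 0.15), were not called for PRL (edgeR, adjusted p = 0.98 to 0.983).

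Relatives and partners of the family came next. CEBPE, the myeloid member, had 5 counts in 1 library and 0 in the other 11. Of 13 other family and C/EBP-binding zipper genes 11 were tested, and 0 rose and 0 fell with PRL (median log2 fold change -0.11, all tested genes -0.02). For this effect 0.119% of all tested genes were called. The smallest p-values were those of DBP, a zipper factor of the circadian clock (-0.74 ± 0.22), BATF3 (1.45 ± 0.55) and BATF2 (-0.72 ± 0.29), with edgeR adjusted p from 0.637 to 0.98. BATF3 was near the detection limit, with group means of at most 0.912 CPM. DDIT3 encodes the C/EBP inhibitor CHOP and was named after its values were seen. It was the 1 member of this list called with the term for title sets (edgeR, adjusted p = 0.0353), beside 1.12% of all tested genes. It averaged 2.30 ± 1.40 CPM in deleted PRL cells and 3.91 ± 1.13 CPM in deleted untreated cells, with 2.32 ± 0.948 CPM in intact PRL cells and 3.66 ± 1.27 CPM in intact untreated cells (SD, n = 3 each). Without the term its averaged effect was -0.70 ± 0.31 (edgeR, adjusted p = 0.98).

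Among 20 regulators of C/EBP genes or proteins, all tested, 1 rose and 0 fell with PRL (median -0.03), beside 0.119% of all tested genes called. The gene that rose was TRIB1, a pseudokinase that, with the ubiquitin ligase COP1, directs C/EBPα to degradation. TRIB1 averaged 37.4 ± 4.28 CPM in deleted PRL cells and 17.4 ± 1.93 CPM in deleted untreated cells, with 33.6 ± 5.38 CPM in intact PRL cells and 15.9 ± 3.90 CPM in intact untreated cells (SD, n = 3 each). Its averaged log2 fold change was 1.09 ± 0.15 (edgeR, adjusted p = 0.00694), and it passed without any 1 library, but not with scaling by library size alone (adjusted p = 0.197). RUNX1 (0.37 ± 0.14) and SP1 (-0.29 ± 0.21) had the next smallest p-values and did not pass (edgeR, adjusted p = 0.98).

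Known C/EBP targets in other settings showed no call in the main design, in which 0.119% of all tested genes were called for the averaged PRL effect. Of 20 inflammatory and acute-phase targets 10 were tested, and 0 rose and 0 fell (median 0.0073). The smallest p-values were those of S100A8 (-1.34 ± 0.58), IL1B (-0.55 ± 0.33) and SAA1 (0.46 ± 0.42), all with edgeR adjusted p = 0.98. S100A8 and SAA1 were near the detection limit, with group means of at most 0.573 and 0.582 CPM. Of 15 mammary and adipocyte targets 14 had an entry and 6 were tested, and 0 rose and 0 fell (median 0.41, all tested genes -0.02). All 6 estimates were above 0, and whether these targets moved as a set was not tested. AREG, an EGF receptor ligand of the mammary ducts, stood at 0.52 ± 0.17, CCND1, a G1 cyclin, at 0.44 ± 0.26 and PPARG, the adipocyte factor, at 0.46 ± 0.28 (edgeR, adjusted p = 0.774 to 0.98). Of 17 amino-acid and stress response genes driven by ATF4 and C/EBP dimers, all tested, 0 rose and 0 fell (median 0.055). TRIB3, a pseudokinase that binds ATF4 and AKT, stood at 1.07 ± 0.28, the arginine transporter gene SLC7A1 at 0.74 ± 0.21 and CTH, a cysteine synthesis enzyme, at -0.87 ± 0.35 (edgeR, adjusted p = 0.387 to 0.98). CTH was near the detection limit, with group means of at most 0.759 CPM. With the term for title sets TRIB3 and SLC7A1 passed (edgeR, adjusted p = 0.00115 and 0.00435), beside 1.12% of all tested genes. For the deletion effects and the interaction 0 members of the 5 lists were called. The share over all tested genes was 0.00566% for each deletion effect and 0% for the interaction.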

How the data were processed

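The 12 libraries were made from polyA-selected RNA, per the labels' protocols. The authors deposited raw read counts, whole numbers for each Ensembl gene, without normalization. The submitters' processing notes name FastQC, the aligner STAR 2.7.9a, Subread with its counter featureCounts, and GRCh38. No source used here names the annotation release or says whether strand was counted, so overlapping genes on opposite strands cannot be told apart. Of 62703 entries 1 was left out for want of values, and 62624 matched a symbol.

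The main design was a quasi-likelihood model in edgeR 4.0.16 (R 4.3.3) of 4 group means without covariates, with TMM scaling after filterByExpr and robust dispersions. It left 8 residual degrees of freedom. F tests of each contrast were adjusted over the 17677 tested genes (Benjamini-Hochberg), with calls under 0.05. An SE here is the size of a log2 fold change over the root of its F value. CPM were TMM-scaled, and log2 CPM had a prior count of 2. Lengths, GC content and coordinates came from GENCODE 29, with GC content for 96.5% of tested genes. For the GC and length offset, each library's log deviations were smoothed on both. The method was tested on simulated data for the averaged PRL effect. It called 9.88% of genes changed 1.5-fold, 71.9% of those changed 2-fold and 100% of those changed 4-fold. A missing call thus does not show that a change near 1.5-fold was absent, and CEBPB was estimated at 1.39-fold. The changed genes were picked at random, and the simulated libraries did not fall into sets. The modelled coefficient of variation between libraries was 0.175 for CEBPB and 0.303 in common for all genes. The simulated shares therefore do not give the power for CEBPB itself.

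The members, the 5 gene lists and the tests were chosen with earlier results of these data known. The text names the members, their overlapping and nearest tested genes, list members called or among the 3 smallest p-values for the averaged PRL effect, and the 5 genes most like each member by Pearson r, of which 1 is not reported here. DDIT3, CEBPE, PRLR and the single markers were named after their values were seen. The model was refitted with 3 other scalings (RLE, upper quartile, library size), 2 other count filters, DESeq2 1.42.0, limma-voom (limma 3.58.1), non-robust dispersions, the compared groups alone, a term for title sets, the offset, and without each library. Leave-outs under that term were added after the data were seen.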

Additional observations from a re-analysis of the deposited data

How the results depend on the processing

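The labels give the groups no shared replicate numbers, so the design pairs no libraries, and blocking was tried on the title sets alone, as an alternative. The 4 C/EBP genes gave 684 alternative values over 36 settings, of which 600 kept direction and side of the threshold. CEBPB passed under 12 of them: the averaged PRL effect with the term for title sets (0.48) and in 9 of 12 leave-outs under that term (0.42, 0.45, 0.49, 0.49, 0.50, 0.50, 0.52, 0.52 and 0.54), the PRL effect in deleted cells with the term (0.62) and in 1 leave-out under it, without intact PRL library 2 (0.62). Leaving out 1 library, with or without the term, gave 0.42 to 0.54 for the averaged and 0.55 to 0.71 for the deleted effect on CEBPB. Without the term it gave 0.22 to 0.45 for the intact PRL effect on CEBPB, 0.17 to 0.40 for its interaction, -0.18 to -0.080 for its averaged deletion effect and -0.37 to -0.17 for that in untreated cells. The other 72 values changed sign, and none of these was called in either fit.

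With the GC and length offset the averaged PRL effect was -0.025 for CEBPA and -0.021 for CEBPD, the intact PRL effect on CEBPD -0.13 and the deleted PRL effect on CEBPA -0.15. The averaged deletion effect was 0.15 for CEBPA and 0.098 for CEBPB, that in untreated cells 0.20 for CEBPD and -0.051 for CEBPG, and that with PRL 0.019 for CEBPA. The deletion effect on CEBPB in untreated cells kept its sign but was -0.034 with the offset and -0.019 with offset and term, and its intact PRL effect was 0.19 and 0.18, and 0.21 with scaling by library size alone. With offset and term together the averaged PRL effect on CEBPD was above 0 (0.068), and the other effects named were -0.024 (CEBPA, averaged PRL), -0.014 (CEBPD, intact PRL), -0.15 (CEBPA, deleted PRL), 0.15 (CEBPA) and 0.11 (CEBPB, averaged deletion), 0.17 (CEBPD) and -0.071 (CEBPG, untreated) and 0.018 (CEBPA, with PRL). With limma-voom the averaged PRL effect on CEBPD was -0.060, the intact one -0.27 for CEBPD and -0.019 for CEBPG, the deleted one -0.025 for CEBPA and the averaged deletion effect on CEBPD -0.19. Scaling by library size alone gave intact PRL effects of -0.078 for CEBPD and -0.046 for CEBPG, a deleted one of -0.069 for CEBPA and 0.030 for deletion in untreated cells on CEBPD. RLE scaling and DESeq2 both gave -0.014 for deletion with PRL on CEBPB. The cause was not tested.

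Leaving out 1 library moved CEBPA between -0.0017 and 0.31 (averaged PRL), -0.042 and 0.58 (intact PRL), -0.18 and 0.18 (deleted PRL), -0.26 and 0.043 (averaged deletion), -0.12 and 0.18 (untreated), -0.52 and 0.083 (with PRL) and -0.55 and 0.080 (interaction). For CEBPD the ranges were -0.058 to 0.41, -0.26 to 0.50, -0.21 to 0.75, -0.23 to 0.25, -0.51 to 0.33, -0.39 to 0.47 and -0.31 to 0.67 in the same order. For CEBPG they were -0.026 to 0.26, -0.29 to 0.22, -0.019 to 0.46, -0.0017 to 0.29, -0.20 to 0.25, -0.036 to 0.55 and -0.068 to 0.52. The deletion effect with PRL on CEBPB ran from -0.078 to 0.12. Counts of called genes over all settings ran from 11 to 291 for the averaged PRL effect (21 in the main design), 1 to 93 for deleted (3) and 1 to 83 for intact PRL (3), 1 to 33 for the averaged deletion (1), 0 to 6 in untreated (1) and 0 to 4 in PRL-treated cells (1), and stayed at 0 for the interaction. Levels per length moved by less than 1 SD with the longest transcript as length or without TMM scaling. CEBPA and CEBPG, with 140 to 368 counts per library, are those that depth limits most.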
